A study of Mus musculus with 20 samples.

Results

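The clustered protocadherin locus holds the Pcdha, Pcdhb and Pcdhg gene arrays on mouse chromosome 18. DNA methylation at the locus was followed in hematopoietic stem cells (HSCs) after serial cycles of 5-fluorouracil (5-FU), a chemotherapy agent toxic to dividing cells, after which HSCs leave rest to rebuild the blood. All 100 bp bins at chr18:36925000-37845000 (mm10) were taken, which gave 679 of the 1201951 bins of the series. Pcdha (chr18:36930285-37188897) held 152 bins and 14 isoforms, Pcdhb (chr18:37264998-37521419) held 166 bins and 22 isoforms, and Pcdhg (chr18:37661775-37841873) held 269 bins and 22 isoforms. The other 92 bins lay between or beside the arrays.

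Methylation was measured by reduced representation bisulfite sequencing (RRBS), which reads CpG sites in CpG-rich restriction fragments. The HSCs were from female C57BL/6 mice, young adult at the start, that received no 5-FU (0x, 4 samples) or 2 (2x, 6 samples), 4 (4x, 4 samples) or 10 cycles of 5-FU (10x, 6 samples), and no group carried a transgene or a mutant allele. The labels give blood as the tissue, whereas the methods describe HSCs sorted from bone marrow about a month after the last cycle. Nothing in the labels ties a sample to its own mouse. The p-values thus reflect the spread among the deposited samples alone, and part of that spread may be technical.

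Clustered protocadherins are cell-surface adhesion proteins best known from the nervous system, where each neuron uses a small set of isoforms as a recognition code. Each isoform of Pcdha and Pcdhg has its own promoter and variable first exon, spliced to exons that the array shares, whereas each Pcdhb isoform is encoded by 1 exon. In neurons, most promoters are chosen at random, with CTCF, cohesin and promoter methylation taking part. The C-type isoforms, at the end of Pcdha and Pcdhg, are less subject to this choice.

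The deposited values are percent methylation per bin, with no reads. The methods state a minimum coverage above 10, and beyond that the depth behind each value is unknown. Bins missing in a sample had been given their group's mean. The locus bins were therefore split into 3 classes. In 85 bins (12.5%) every group varied and no value other than 0 or 100 was repeated within a group, and these varying bins were used for the main comparisons. In 233 bins (34.3%) no such value was repeated but at least 1 group was at 0% or 100% throughout, and whether those groups were measured in every sample is unknown. In the other 361 bins (53.2%) a value was repeated within a group. Over the whole series these shares were 7.0%, 56.9% and 36.1%. A bin filled in only 1 sample of a group leaves no repeat, so the varying bins may hold filled values too. Marker promoters were described over all deposited bins, filled values included. Of the promoters of 9 HSC genes such as Kit and Gata2, 8 had bins and 7 of these were below 10% methylation. None of the promoters with bins from the B cell (3 of 4 genes), T cell (2 of 4), myeloid (3 of 4) and erythroid (2 of 3) lists was. The lists overlapped, as the highest HSC promoter was at 19.6% and the lowest myeloid and B cell promoters were at 17.8% and 19.1%. The lowest T cell and erythroid promoters were at 77.9% and 20.6%.

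The arrays were mostly methylated in HSCs, and many of their bins lay at intermediate levels. Of the 85 varying bins, 46 (54.1%) averaged between 20% and 80% over the 20 samples, against 17% of the 84131 varying bins of the whole series. The share was 65.3% in Pcdhg (32 of 49 bins), 50% in Pcdha (5 of 10) and 42.1% in Pcdhb (8 of 19). Over all bins without repeated values it was 18.6% at the locus and 2.78% in the whole series. Averaging over a group makes intermediate values, and in all deposited bins the shares were 39.9% and 11.6%. These are descriptions of bins that share libraries, and the difference was not tested. Within groups, intermediate varying bins had a median SD of 20.6 points at the locus and 23.7 points in the whole series.

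**Figure D1:**
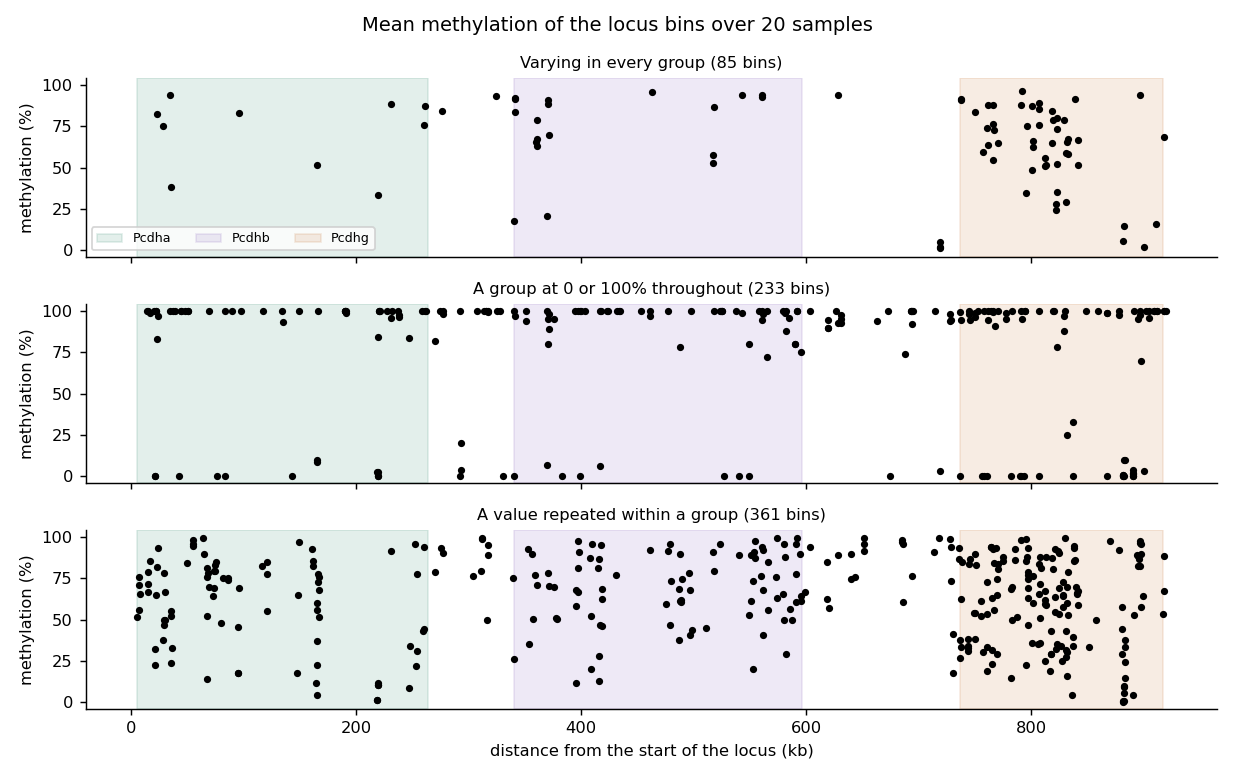
Mean methylation (%) over the 20 samples of each 100 bp bin, against the distance (kb) from the start of the locus, with the 3 arrays shaded. Of the 85 varying bins, the 49 in Pcdhg are scattered between low and high levels. The 233 bins with a group at 0% or 100% throughout lie mostly at the extremes.

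Bins near the start sites of the isoforms were less methylated than those further into the arrays. In varying bins, the level was 52.9% from 500 bp upstream to the start site (6 bins), 44.3% over the first 500 bp (11 bins), 70.9% from 500 to 1000 bp (19 bins) and 73.7% from 1000 to 2000 bp (27 bins). Within 500 bp of a start site, varying bins averaged 47.3% in the arrays (17 bins) and 10.9% in the whole series (26209 bins). Over bins without repeated values the levels there were 32.2% and 18.9%. Across the 85 varying bins, methylation fell with the number of CpGs in the bin (Pearson's r = -0.546, Spearman's rho = -0.510), and over the 2544 varying bins of chromosome 18 r was -0.674. The 85 include 7 bins outside the arrays. Within the arrays r was -0.779 in Pcdha (10 bins), -0.528 in Pcdhb (19 bins) and weaker in Pcdhg, at -0.204 (49 bins). Bins are not independent, and no test was made.

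**Figure D2:**
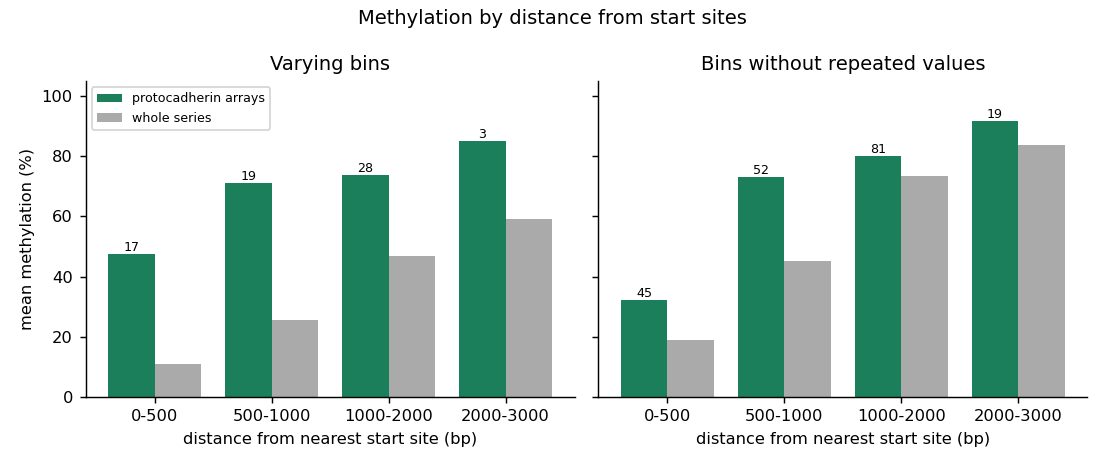
Mean methylation (%) of bins by distance (bp) from the nearest start site, in the protocadherin arrays (green) and the whole series (grey), for varying bins and for bins without repeated values; numbers over the green bars count bins. Within 500 bp the arrays averaged 47.3% in varying bins, above the 10.9% of the whole series.

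The isoform promoters, taken as bins within 1 kb of the start site, ranged from unmethylated to fully methylated. Of the 58 isoforms, 55 had a promoter bin, 38 had one without repeated values and 19 had a varying one. Among the 38, 7 were below 10%, 1 was between 10% and 20%, 19 were between 20% and 80%, and 11 were above 80%. Those below 10% were Pcdha6, Pcdhb4, Pcdhga6 and Pcdhga7, each at 0% in every sample, and the C-type isoforms Pcdhac2, Pcdhgc3 and Pcdhgc4. Among the 19 with a varying bin, levels ran from 5.80% in Pcdhgc3 to 94.0% in Pcdhb17.

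The C-type promoters fell at both ends of this range. In bins without repeated values, Pcdhgc3 averaged 1.86% ± 1.44 (0x), 1.35% ± 1.59 (2x), 1.77% ± 2.01 (4x) and 1.28% ± 1.41 (10x; SD, n = 4, 6, 4 and 6, 5 bins). Its 1 varying bin was at 9.29% ± 7.21, 5.73% ± 6.57, 6.16% ± 6.85 and 3.30% ± 3.59 in these groups. The other bins, with a group at 0% or 100% throughout and possibly filled, lower the average. Pcdhgc4 averaged 0.488% ± 0.846, 0.950% ± 1.81, 1.67% ± 1.17 and 2.16% ± 2.61 in the same groups (5 bins). Pcdhac2, the last isoform of Pcdha, averaged 1.46% ± 2.39 without 5-FU, 0% after 2 cycles, 3.25% ± 5.57 after 4 and 0.922% ± 1.43 after 10 (4 bins). Averaged over their bins without repeated values, these 3 promoters stayed at or below 11.5% in every sample. Pcdhac1 was intermediate, at 36.9% ± 3.63 without 5-FU, 42.7% ± 17.6 after 2 cycles, 45.6% ± 6.13 after 4 and 44.2% ± 14.7 after 10 (4 bins). Pcdhgc5, the last isoform of Pcdhg, was at 100% in every sample but 1 of 4x, which was at 0% (1 bin). Samples of treated groups and 0x overlapped for all 5 isoforms. At the other named isoforms, Pcdha1 had only a bin with repeated values and Pcdhb22 had no promoter bin.

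**Figure D3:**
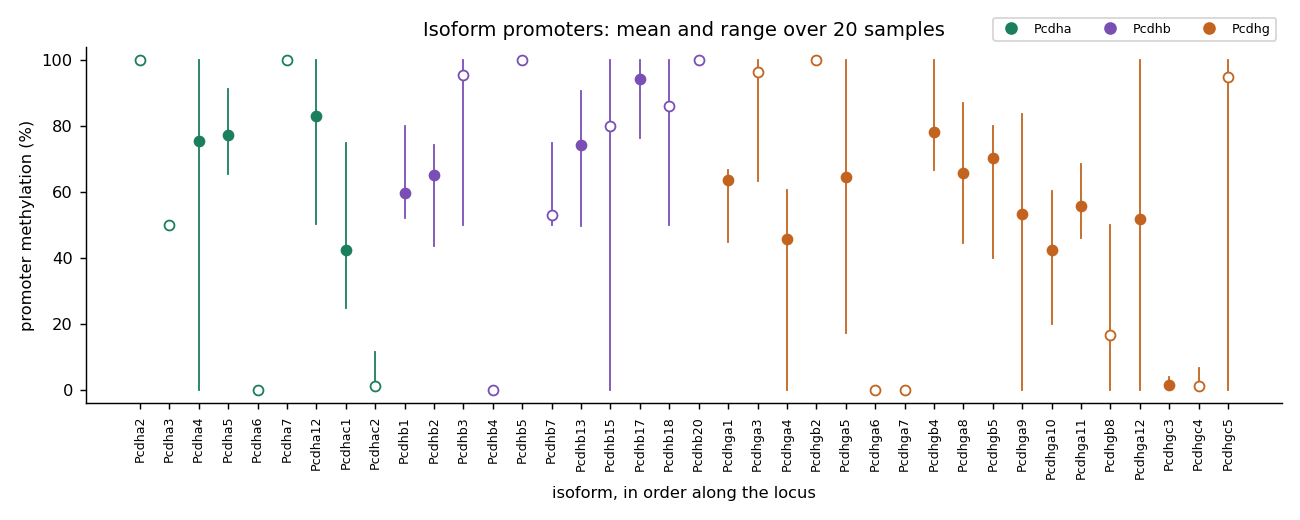
Promoter methylation (%) of the 38 isoforms with a bin without repeated values, in order along the locus. Points are means and lines the range over 20 samples, and filled points mark the 19 isoforms with a varying bin. Pcdhac2, Pcdhgc3 and Pcdhgc4 sit near 0%, among neighbours that are mostly higher.

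Mean methylation of the arrays was compared to ask whether the locus changed with the number of cycles. In Pcdha, the 0x samples were at 65.6%, 75.4%, 68.9% and 74.8%, the 2x samples ran from 61.2% through a median of 68.7% to 72.2%, the 4x samples were at 72.4%, 76.1%, 74.9% and 81.4%, and the 10x samples ran from 65.9% through 70.8% to 75.8%. The 2x mean differed from that of 0x by -3.37 points (SE 2.95), the 4x mean by 5.04 (SE 3.03) and the 10x mean by -0.742 (SE 2.75). The samples of each treated group overlapped those of 0x.

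In Pcdhb, the 0x samples were at 71.3%, 79.1%, 70.2% and 62.5%, the 2x samples ran from 67.6% through 72.8% to 81.9%, the 4x samples were at 72.6%, 70.0%, 81.2% and 73.0%, and the 10x samples ran from 72.1% through 76.2% to 81.7%. The 2x mean lay 3.14 points above that of 0x (SE 4.05), the 4x mean 3.44 (SE 4.18) and the 10x mean 5.23 (SE 3.69), with overlap in each. Among samples numbered 01 to 12 in the labels, the 10x difference was -0.886 points (2 samples against 2 of 0x). Among those numbered 13 to 34 it was 10.5 points (4 against 2). The 4x difference was likewise -3.93 and 10.8 points in these 2 runs of numbers (2 against 2 in each). For 2x it was 4.89 (2 against 2) and 4.50 points (4 against 2).

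In Pcdhg, the 0x samples were at 67.1%, 60.8%, 60.8% and 66.1%, the 2x samples ran from 56.8% through 64.0% to 65.9%, the 4x samples were at 65.8%, 64.2%, 60.7% and 59.9%, and the 10x samples ran from 58.5% through 64.5% to 65.2%. The 2x mean differed by -0.926 points (SE 2.19), the 4x mean by -1.05 (SE 2.18) and the 10x mean by -0.0824 (SE 1.98), again with overlap. Over all varying bins of the series, the same differences were 0.416, 0.823 and 1.2 points, and samples did not overlap at 10 cycles only. At the locus as a whole, 10x was at 66.0% ± 2.16 and 0x at 65.0% ± 1.89 (SD, n = 6 and 4).

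**Figure D4:**
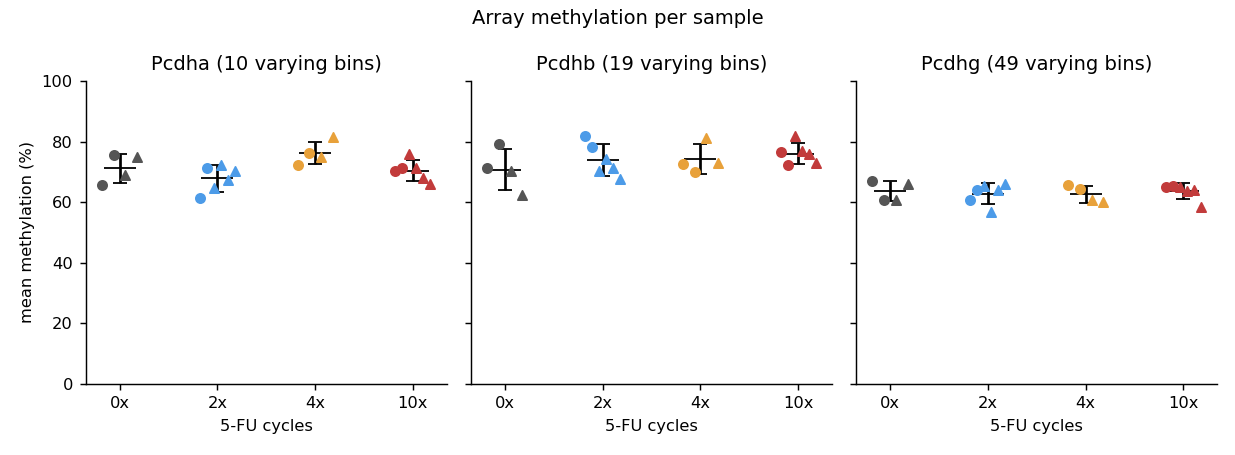
Mean methylation (%) of each array per sample in the varying bins, by number of 5-FU cycles. Points are samples (circles, numbers 01 to 12; triangles, 13 to 34), horizontal lines are means and bars are SD. The samples of every treated group overlap those of 0x in each array.

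No single bin of the locus passed the threshold. limma with Benjamini-Hochberg adjustment over all 84131 varying bins, at an adjusted p under 0.05 and at least 10 points, called 0 of the 85 locus bins in each treated group, where 0.00357% (2x), 0.00713% (4x) and 0.0131% (10x) of all bins were called. It also called 0 for a slope on the number of cycles (0.00119% of all bins). The lowest adjusted p at the locus was 0.543 for 2x, 0.975 for 4x, 0.544 for 10x and 0.975 for the slope. At an unadjusted p under 0.05 and at least 10 points, 2x had 3 bins higher and 1 lower (1.84% and 1.02% of all bins). The 4x group had 3 higher and 1 lower (1.81% and 1.04%), and 10x had 5 higher and 0 lower (2.9% and 1.28%). In the 85 bins, 41.4% of 2x values were exactly 0% or 100%, against 25% (0x), 19.1% (4x) and 15.3% (10x). Over all varying bins these shares were 56.0% (2x), 38.6% (0x), 35.6% (4x) and 31.5% (10x). Whether depth differed between groups was not tested. Samples of 2x and 0x did not overlap in 2 of the 85 bins, both higher (0.676% of all bins), whereas 4x and 10x overlapped 0x in all 85 (1.95% and 1.32% of all bins did not).

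The first of these 2 bins lay at chr18:37747600-37747699, in the first exon of Pcdhga10, a variable isoform of Pcdhg, 634 bp from its start site. The 2x samples ran from 52.6% through a median of 61.3% to 100%, against 25.1%, 0%, 15.6% and 39.1% for 0x, and every 2x sample was above every 0x sample. The difference was 51.8 points (SE 12.2, limma, unadjusted p = 0.00200, adjusted p = 0.624). The 4x samples were at 72.7%, 36.2%, 41.7% and 100% and the 10x samples ran from 14.4% through 49.4% to 61.4%, and both groups overlapped 0x. In the limma fits of this bin, 4x differed by 42.7 points (SE 15.4, adjusted p = 0.975) and 10x by 26.3 points (SE 10.2, adjusted p = 0.726). The 3 comparisons share the same 0x samples.

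The second lay at chr18:37285600-37285699, between Pcdhb1 and Pcdhb2. The 2x samples ran from 90% through 97.9% to 100%, against 73.9%, 78.6%, 48.0% and 35.3% in 0x. The difference was 37.1 points (SE 8.06, limma, unadjusted p = 0.00119, adjusted p = 0.543). The next bin, at chr18:37285700-37285799, was chosen after its values were seen. It averaged 73.8% ± 11.2 in 10x and 44.5% ± 18.9 in 0x (SD, n = 6 and 4), a difference of 29.3 points (SE 8.78, limma, adjusted p = 0.544), and the samples overlapped.

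Of the 19 isoform promoters with a varying bin, limma called 0 at an adjusted p under 0.05 in each treated group and for the slope. It called 0.02% of all 15022 promoters in 10x and 0% otherwise. Samples overlapped in all 19 promoters, whereas 0.652% (2x), 2.19% (4x) and 1.34% (10x) of all promoters had no overlap. At an unadjusted p under 0.05, 1 promoter was higher in 2x and 0 lower (1.3% and 1.98% of all promoters). In 4x, 2 were higher and 0 lower (2.04% and 1.69%), and in 10x, 1 was higher and 0 lower (2.82% and 3.16%).

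The promoter of Pcdhb2, an isoform near the start of Pcdhb, ran from 49.7% through a median of 61.6% to 73.6% in 10x, against 57.4%, 50%, 52.9% and 30.9% in 0x. The difference was 15.2 points (SE 5.96, limma, unadjusted p = 0.0304, adjusted p = 0.740), and its slope was 1.38 points per cycle (SE 0.422, limma, unadjusted p = 0.00392, adjusted p = 0.980). Of its 2 varying bins, the one over the start site, chr18:37294800-37294899, averaged 13.2% (0x), 11.9% (2x), 19.4% (4x) and 35.7% (10x). In this bin the 10x samples ran from 12.6% to 55.8%, across those of 0x (0% to 22.6%).

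Pcdha12, the last of the alternate isoforms of Pcdha, ran from 76.5% through 98.5% to 100% in 2x, against 69.0%, 76.7%, 67.5% and 85.6% in 0x. The 1 bin behind it differed by 19.3 points (SE 5.40, limma, unadjusted p = 0.00562, adjusted p = 1.0). In 4x, the Pcdhac1 promoter averaged 74.2% ± 22.0, against 45.6% ± 11.9 in 0x (SD, n = 4 each, 1 varying bin), and Pcdhga10 averaged 49.5% ± 10.9, against 32.9% ± 10.9 in 0x (5 bins). Both had an adjusted p of 0.977 in limma. Of the Pcdha12, Pcdhac1 and Pcdhga10 promoters, none was past an unadjusted p of 0.05 in another comparison.

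**Figure D5:**
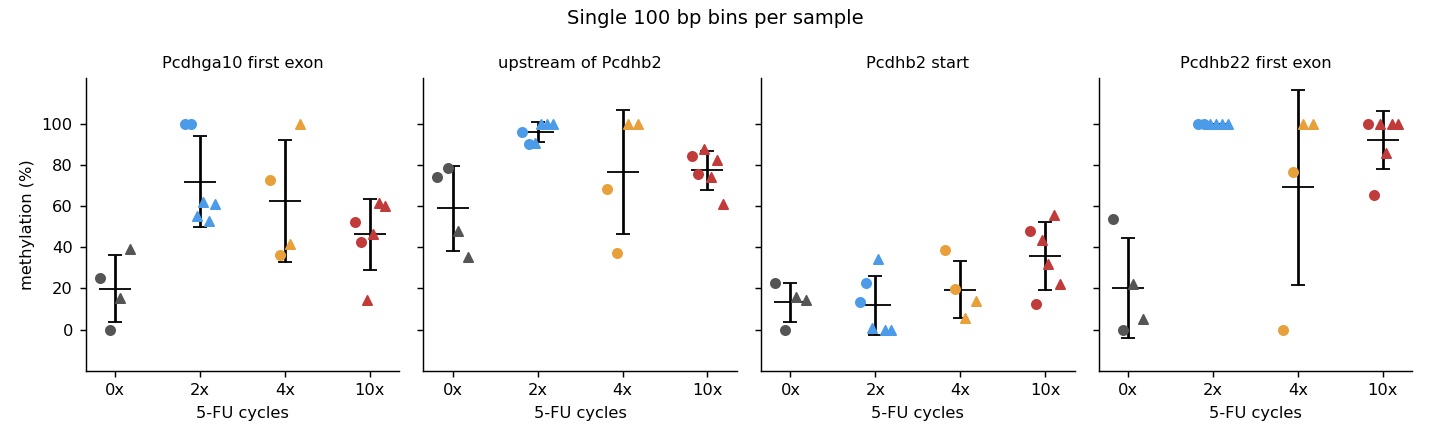
Methylation (%) of 4 single bins per sample, by number of 5-FU cycles: Pcdhga10 first exon, upstream of Pcdhb2, over the Pcdhb2 start site, and Pcdhb22 first exon. Circles are samples numbered 01 to 12 and triangles 13 to 34, lines are means and bars SD. In the first 2 bins all 2x samples lie above all 0x samples.

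Bins in which a group was at 0% or 100% throughout gave calls, with the limit that such a group may hold filled values. Adding them, limma called 6 of 173 locus bins in 2x (1.64% of 283752 bins), 4 higher and 2 lower (0.874% and 0.768%). It called 5 in 4x (0.933%), 2 higher and 3 lower (0.633% and 0.301%), and 4 in 10x (0.924%), 3 higher and 1 lower (0.7% and 0.224%). For the slope it called 1 bin (0.286%), with 0 rising and 1 falling (0.0895% and 0.196%). Both groups compared were at 0% or 100% throughout in 5, 5 and 3 of the bins called in 2x, 4x and 10x. On data simulated from the varying bins, limma on percent values made more false calls in some settings than the adjusted p allows for, and bins with a group at 0% or 100% were not simulated, so the adjusted p of these calls may be too small. The bins in the exons of Pcdhb2 (chr18:37295600-37295699, 1 CpG) and Pcdhb15 (chr18:37474300-37474399, 1 CpG) were at 100% in every sample of 2x, 4x and 10x and at 0% in every sample of 0x. A bin between Pcdha and Pcdhb (chr18:37218100-37218199, 3 CpGs) went the other way, at 0% in every sample of 2x, 4x and 10x and at 100% in every sample of 0x. A bin in an intron of Pcdhg near Pcdhgc5 (chr18:37822700-37822799, 2 CpGs) was at 0% in 2x and at 100% in 4x, 10x and 0x. The bin upstream of Pcdhgb8 (chr18:37761700-37761799, 1 CpG) was at 100% in 2x and at 0% in 4x and 0x. The falling slope was at a bin between Pcdhb and Pcdhg (chr18:37544100-37544199), at -2.45 points per cycle (SE 0.457, limma, adjusted p = 0.0149). With the Pcdhb2 bin among its 6 bins, the Pcdhb2 promoter averaged 69.7% ± 3.03 in 10x and 52.1% ± 6.14 in 0x (SD, n = 6 and 4), without overlap. The called bin, at 0% in 0x and 100% in 10x, makes up most of this difference, so it is not a separate result. Over the 2 varying bins of this promoter, samples of 10x and 0x overlapped. Adjacent bins in Pcdhb21 (chr18:37515100-37515299, with 4 CpGs and 1 CpG) were at 0% in 4x and at 100% in 2x, 10x and 0x.

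A bin in Pcdhb22 (chr18:37520200-37520299), the last isoform of Pcdhb, was called in a comparison in which both groups varied. The 10x samples ran from 65.6% through a median of 100% to 100%, against 53.6%, 0%, 22.0% and 5.00% in 0x, without overlap. The difference was 71.8 points (SE 11.6, limma, adjusted p = 0.0234). The fit and adjustment ran over the 283752 bins that include groups at 0% or 100% throughout. There 0.924% of bins were called in 10x, against 0.0131% of the varying bins, so this adjusted p may also be too small. The 2x samples were all at 100%, and the 4x samples were at 0%, 76.6%, 100% and 100%. Because 2x does not vary, the bin is outside the varying set.

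Over the 60 Pcdhb bins of this kind, methylation was 86.1% ± 0.800 in 2x, 79.9% ± 1.86 in 4x and 84.5% ± 0.930 in 10x, against 80.6% ± 0.503 in 0x, and 2x and 10x did not overlap 0x. These bins include those called in Pcdhb2, Pcdhb15, Pcdhb21 and Pcdhb22. The Pcdhb2 and Pcdhb15 bins each differed from 0x by 100 points in every treated group. The Pcdhb22 bin differed by 79.9 (2x) and 71.8 points (10x), and the Pcdhb21 bins by -100 points (4x). These few bins weigh heavily on the Pcdhb mean, which was not taken without them. The differences of this mean from 0x, 5.55 points (2x) and 3.94 points (10x), thus cannot be read as a shift across the 60 bins. Over the 683457 such bins of the whole series, differences from 0x were smaller, at 0.721 points (2x), 0.158 points (4x) and 0.522 points (10x), and 2x and 10x did not overlap 0x there either.

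In the bins with repeated values, samples of each treated group overlapped those of 0x in every array. Pcdha was at 56.7% ± 2.51 in 2x and 59.6% ± 1.5 in 0x (SD, n = 6 and 4). Pcdhb was at 66.8% ± 0.726 in 2x and 69.2% ± 1.91 in 0x, and Pcdhg at 57.0% ± 1.93 in 2x and 59.2% ± 2.04 in 0x. The 4x means differed from 0x by 1.5 points (Pcdha), 0.936 points (Pcdhb) and -0.834 points (Pcdhg), and the 10x means by 0.143, -1.10 and 1.33 points. Over all deposited bins of an array, the samples of 4x and 0x did not overlap in Pcdha (68.2% ± 0.399 and 66.8% ± 0.841, SD, n = 4 each), and those of the other treated groups and arrays overlapped 0x. In 81 of these 361 bins each group held a single value. Tested with all deposited bins that vary, limma called 101 of 516 locus bins in 2x (14% of all bins), 76 in 4x (10%), 67 in 10x (10.8%) and 50 for the slope (9.23%). Filled samples of 1 group hold identical values, which shrinks the spread that limma works with, and filling and group cannot be told apart here.

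In windows of 50 kb, 0 of the 5 locus windows with at least 5 varying bins passed the adjusted threshold in limma in any treated group, where 0.0356% of 5618 windows did in 10x and 0% in the others. At an unadjusted p under 0.05 it was 0 of 5 as well, against 4.15% (2x), 5.02% (4x) and 9.34% (10x) of all windows. The window nearest to it, at the start of Pcdhb (chr18:37250000-37299999), differed by 6.38 points in 10x (SE 3.34, adjusted p = 0.605).

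Genes that act with the locus were given by list. Of 20 regulators of the locus or of DNA methylation, such as Ctcf, Rad21 and the Dnmt and Tet genes, 17 promoters were tested and 0 passed the adjusted threshold in limma in any comparison. At an unadjusted p under 0.05, 1 was higher in 10x (Dnmt3a, a methyltransferase that sets new methylation), where 2.82% of all promoters were, and 1 had a rising slope (Smc3, a cohesin subunit), as did 2.32% of all promoters. With 17 promoters, 1 is near the background. Of 6 signaling or adhesion partners 5 were tested, and of 12 protocadherins outside the clusters 9 were, with 0 past either threshold. Between Pcdhb and Pcdhg, the promoter of Taf7, a general transcription factor subunit, was at 2.58% in 0x and differed by 1.56 points (2x), -0.617 (4x) and -0.821 (10x), with 0 of these past either threshold.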

How the data were processed

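RRBS was done on 20 HSC samples. Per the submitters' notes and methods, trimming used Trim Galore 0.4.3, alignment to mm10 used Bismark 0.23.1 and a coverage minimum was set in methylKit 1.22.0. CpG levels were then binned per 100 bp, a bin missing in a sample taking the average of its group. The deposited values are percent methylation without reads, so no counting interval or read-count test was possible. Bins were annotated with RefSeq genes of GRCm38.p6. Promoters were bins within 1 kb of a start site. limma 3.58.1 (R 4.3.3) was fitted to the percent, each treated group with 0x or a slope over all samples, with Benjamini-Hochberg adjustment over all features. Array means were compared without a p. Named isoforms were the C-type, the first and last of each array, and those past an adjusted p of 0.05 or, up to 4 per array and comparison, an unadjusted p of 0.05. Named bins were called bins or the largest differences without overlap. The locus and lists were chosen with earlier results of these data known. Scripts were tested on simulated data, where false calls exceeded the nominal share in some settings. Python 3.11.15, numpy 2.4.6, pandas 2.3.3, matplotlib 3.10.9 and the R package data.table (version 1.17.8) were used.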

Additional observations from a re-analysis of the deposited data

Results flagged for a closer look

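Of 44 groups of samples examined at the array means and named promoters, 6 held a sample flagged by Dixon's criterion. By this criterion, the gap to the nearest other sample is a large part of the group's range. It flags about 1 in 20 groups by chance where values are independent and normally distributed. These groups share bins and some lie near 100%, so that rate need not hold. The Pcdhg mean of the 10x sample 34 was 58.5%, against 63.8% to 65.2% in the other 10x samples. The same sample was at 67.4% at the Pcdhb1 promoter, where the others were at 42.0% to 51.2%. At the Pcdhga1 promoter, which rests on 1 varying bin, a sample stood apart in every group, at 80.9% in 0x (sample 14), 34.6% in 2x (sample 03), 47.1% in 4x (sample 19) and 94.9% in 10x (sample 11), with most other samples at or near 100%.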

How the results depend on the processing

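Leaving out each sample in turn called 0 bins, isoform promoters and windows of the locus in each comparison. The array differences from 0x then ran, for 2x, 4x and 10x, from -5.23 to -1.96, 3.18 to 6.45 and -2.60 to 0.670 points in Pcdha, from 0.378 to 5.93, 0.675 to 6.22 and 2.47 to 8.01 in Pcdhb, and from -1.90 to 0.261, -2.09 to 0.0794 and -1.05 to 1.05 in Pcdhg. The Pcdha difference in 2x was 1.57 points with repeated values left out, and the Pcdhg difference in 10x was 2.85 points in promoter bins. With groups at 0% or 100% included, the calls were 6, 5 and 4 bins in 2x, 4x and 10x and 1 for the slope. Promoters called were 3, 1 and 2 of 28 in 2x, 4x and 10x (524, 195 and 217 of all 20552). Windows called were 5, 0 and 2 of 13 (2740, 731 and 1459 of all 20200). In all deposited bins, where filling makes samples of a group alike, 101, 76 and 67 bins were called, and 50 for the slope. Promoters called there were 10, 6, 6 and, for the slope, 7 of 50 (5479, 3464, 3914 and 2381 of all 25381). Windows called were 1, 3 and 5 of 19 (11347, 6206 and 9462 of all 35298). Signs of uncalled promoter differences turned in all deposited bins (Pcdhb1 13.6, 10.2 and 15.3 points in 2x, 4x and 10x, Pcdhga1 13.8 and 1.64 in 2x and 4x, Pcdhgc3 3.32 and 1.66 in 2x and 10x, Pcdhac1 -3.03 in 4x), at other promoter widths (Pcdhb2 -1.35 with 500 bp in 2x, and -4.19 and -3.12 with 2 kb in 2x and 4x) and with groups at 0% or 100% included (Pcdhac1 9.71 in 10x). Without single samples they turned for Pcdhac1 (-8.01 to 12 in 2x, -6.43 to 8.33 in 10x), Pcdhga1 (-12.8 to 2.52, -15.6 to 2.08 and -1.09 to 5.29 in 2x, 4x and 10x), Pcdhb1 (-14.4 to 7.75 in 4x, -16.7 to 5.41 in 10x), Pcdha12 (-0.969 to 10.7 in 4x) and Pcdhb2 (-3.05 to 5.80 in 4x). The causes were not tested. One fit of all groups, the log ratio, a variance trend, window sizes, the block for label numbers and, for bins alone, plain regression and other minimum differences left the calls at an adjusted p at 0. Counts at an unadjusted p moved, over these settings, to 2 to 6 bins higher and 1 to 2 lower in 2x, 0 to 3 and 0 to 2 in 4x, and 2 to 6 and 0 to 1 in 10x. The 2 promoters higher in 4x became 0 with the log ratio and with the block, the promoter higher in 10x became 0 with 1 lower with the log ratio, and 1 of 4 windows of 25 kb was higher in 10x. Some fits of windows and of promoter slopes were added after the data were seen. No paired analysis was possible because the groups share no replicate numbers in the labels. Depth beyond the coverage minimum is unknown, and the varying bins cover only 19 of 58 isoforms.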
